A study of Mus musculus with 6 samples.

Results

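The AP-1 and BATF family factors examined here are 10 genes of the 22939 in the deposited tables, taken by symbol: the FOS family members Fos, Fosb, Fosl1 and Fosl2, the JUN family members Jun, Junb and Jund, the BATF members Batf and Batf3, and Atf3. All 10 were found in both the count and the FPKM table, and all 10 passed the filter on low counts. RNA-seq libraries came from mouse regulatory T (Treg) cells made in culture from naive CD4+ T cells of Foxp3 GFP mice, a knock-in on the C57BL/6J background that reports Foxp3 by green fluorescence. Cells were stimulated through CD3 and CD28 with TGF-β1 and with antibodies that block IFN-γ and IL-4, with sorafenib (Sora, a multikinase inhibitor used in liver cancer) in 3 Sora-Treg libraries and without it in 3 ctrl-Treg libraries, and GFP+ cells were then sorted. The age and number of the donor mice, the Sora concentration and the day of harvest of the sequenced cells are not given in the sources used here. The libraries are numbered as replicates, but nothing says that they came from separate cultures or animals, so p-values measure the spread between these libraries, which may be technical.

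AP-1 is a family of dimeric transcription factors built from basic leucine zipper (bZIP) proteins. FOS proteins bind DNA mainly as partners of JUN proteins, whereas JUN proteins can also pair with each other. BATF proteins are short bZIP factors that pair with JUN proteins and bind composite DNA elements together with IRF4 or IRF8. In T cells, AP-1 cooperates with NFAT at the genes of activation cytokines, and BATF is known for its part in effector and tissue Treg cells. Several members are immediate early genes, whose transcripts appear within minutes of stimulation and decay fast. A bulk library gives their transcript level at harvest and says nothing of protein, phosphorylation or DNA binding.

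Total counts were between 30727686 and 37717324 a library. By these totals, 3 counts correspond to between 0.0795 and 0.0976 CPM (counts scaled to the size of the library), a floor that covers counting error only. The CPM of the markers that follow are scaled further by the trimmed mean of M values (TMM). The Treg and T cell markers Foxp3, Il2ra, Ctla4, Ikzf2, Tnfrsf18, Cd3e, Cd3g and Cd4 were all present, with a summed level of 4033 to 4067 CPM in ctrl-Treg and 7134 to 7253 CPM in Sora-Treg libraries. Trac, also listed, was not found. Of these 8 markers 7 were higher with Sora and none lower, but the rise of the sum was mostly Il2ra (1934 to 3795 CPM) and Ctla4 (383 to 1108 CPM). Ikzf2 did not pass (0.02 on the log2 scale), and Cd4 rose by only 0.06. Foxp3 itself was slightly higher with Sora, by 0.07 on the log2 scale (adjusted p = 0.0405 by edgeR). The groups overlapped, with ctrl-Treg replicate 1 at 268.8 and Sora-Treg replicate 2 at 268.4 CPM. With libraries scaled by their totals alone, the median of all genes moved to -0.12. That shift exceeds the change of Foxp3, so the direction for Foxp3 depends on the scaling. In a bulk library, fewer cells of a type and less RNA per cell cannot be told apart. Of 7 myeloid markers 5 were lower in Sora-Treg cells, and their summed level was 93.5, 93.0 and 24.9 CPM in ctrl-Treg replicates 1 to 3 against 20.8 to 42.9 CPM in Sora-Treg libraries. These sums differed among the controls too. The dendritic cell list summed to 15.3 to 17.2 CPM in ctrl-Treg and 4.28 to 4.86 CPM in Sora-Treg libraries, nearly all of it Zbtb46, while Xcr1, Itgax and Cd207 were at most 0.22 CPM in any library. B cell markers summed to 9.71 to 10.7 and 6.09 to 7.68 CPM, CD8 T cell markers to 13.2 to 15.1 and 12.6 to 13.8 CPM, and natural killer and erythroid markers to at most 0.692 CPM.

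Values below are TMM-scaled CPM too unless FPKM is named, with mean ± SD over 3 libraries. Groups were compared by edgeR quasi-likelihood, with p-values adjusted (Benjamini-Hochberg) over all genes tested. A gene passed at an adjusted p under 0.05, and it was called a differentially expressed gene (DEG) where its log2 fold change was also beyond 1 in either direction. All 10 factors passed, 8 higher and 2 lower in Sora-Treg cells. Of all 13463 genes tested 59.6% passed, 29.7% as higher and 29.9% as lower, so passing was common. This even split rests on the scaling: 3994 genes were higher and 4028 lower with TMM, against 2862 and 5614 with library totals alone (DEGs 720 and 845, instead of 848 and 669) and 2502 and 5092 on log2(FPKM + 1). Of the 10 factors, 7 were then higher and 2 lower with library totals alone. Among the 9790 genes at least as abundant as the least abundant factor, 67.5% passed. The groups did not overlap for any of the 10, against 63.7% of all genes tested. The DEGs were Fosl2, Batf3 and Fosl1, 3 of 10, where 11.3% of all genes tested were DEGs, and 5.92% of those at least as abundant as the least abundant factor. Fosl2 and Batf3 were the 2 higher ones (6.3% of all genes) and Fosl1 the lower one (4.97%). The median log2 fold change of the 10 was 0.50, beside -0.0035 over all genes tested. The other 7 moved by less than the DEG limit. Members moved in opposite directions within both the FOS and the BATF family.

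Sequence just before the start of transcription was read for the genes on which these contrasts turn: Fosl2 and Fos, which rose, Junb, the gene with the highest level of the 10, and the pair Batf and Batf3, which went opposite ways. The windows come from RefSeq (build GRCm38.p6), where 9 of the 10 genes were matched. Fosl1 was not. Each is the 250 bases before the start, written 5′ to 3′ in the direction of the gene. Capitals mark TGACGT (the core letters of the cyclic AMP response element, CRE), GTAAACA (a forkhead site, read by FOXO and other forkhead factors) and TATAAA, on either strand.

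Fosl2 at chr5:32136222-32136471, plus strand: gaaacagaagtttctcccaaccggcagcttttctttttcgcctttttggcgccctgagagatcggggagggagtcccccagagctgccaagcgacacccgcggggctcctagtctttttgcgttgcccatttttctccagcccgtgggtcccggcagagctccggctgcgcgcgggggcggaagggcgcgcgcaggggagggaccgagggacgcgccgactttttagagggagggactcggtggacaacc
Fos at chr12:85473640-85473889, plus strand: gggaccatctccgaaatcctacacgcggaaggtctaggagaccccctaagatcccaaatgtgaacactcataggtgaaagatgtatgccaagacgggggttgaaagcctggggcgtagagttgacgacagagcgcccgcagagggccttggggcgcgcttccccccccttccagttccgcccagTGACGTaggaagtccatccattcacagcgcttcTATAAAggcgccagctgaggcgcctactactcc
Junb at chr8:84978749-84978998, minus strand: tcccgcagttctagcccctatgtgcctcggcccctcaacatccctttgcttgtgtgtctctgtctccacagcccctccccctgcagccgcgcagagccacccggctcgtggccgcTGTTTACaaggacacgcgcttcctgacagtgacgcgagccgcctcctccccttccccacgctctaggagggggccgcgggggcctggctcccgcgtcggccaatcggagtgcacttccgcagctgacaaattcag
Batf at chr12:85686470-85686719, plus strand: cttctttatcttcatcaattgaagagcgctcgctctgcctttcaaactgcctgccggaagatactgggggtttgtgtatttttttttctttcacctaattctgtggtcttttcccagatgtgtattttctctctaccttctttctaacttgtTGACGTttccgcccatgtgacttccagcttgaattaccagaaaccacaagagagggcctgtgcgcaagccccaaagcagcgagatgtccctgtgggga
Batf3 at chr1:191098164-191098413, plus strand: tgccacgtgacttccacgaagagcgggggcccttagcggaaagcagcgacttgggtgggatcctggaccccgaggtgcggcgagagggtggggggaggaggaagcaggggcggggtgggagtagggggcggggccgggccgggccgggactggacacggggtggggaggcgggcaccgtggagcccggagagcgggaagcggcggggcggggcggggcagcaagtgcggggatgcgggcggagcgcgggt

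In windows reaching from 250 bases before to 50 after the start, TGACGT was present in 3 of the 9 genes, Fos, Batf and Atf3, and in 7.51% of all 32851 promoter windows. It lay 66 bases before the start in Fos and 98 bases before it in Batf. Fos rose and Batf fell. TATAAA was present 33 bases before the start of Fos, and at the start itself in Junb, against 13.6% of all windows. The reverse complement of GTAAACA was present in Junb, 135 bases before the start, and in none of the other 8, against 3.65% of all windows. None of the 9 windows held the AP-1 element TGACTCA (5.2% of all windows), the full CRE TGACGTCA (1.79%), which contains TGACGT, the CArG box of serum response factor (1.63%) or the BATF and IRF composite element (0.125%), each searched on both strands. The Fosl2 and Batf3 windows have no capitals, as they held none of the letters marked. TGACGT and TATAAA were chosen after these promoters were seen, so setting them beside their share of all windows is no test. A match here is a description of the letters only, and no match says only that these letters are not in this window.

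**Figure D1:**
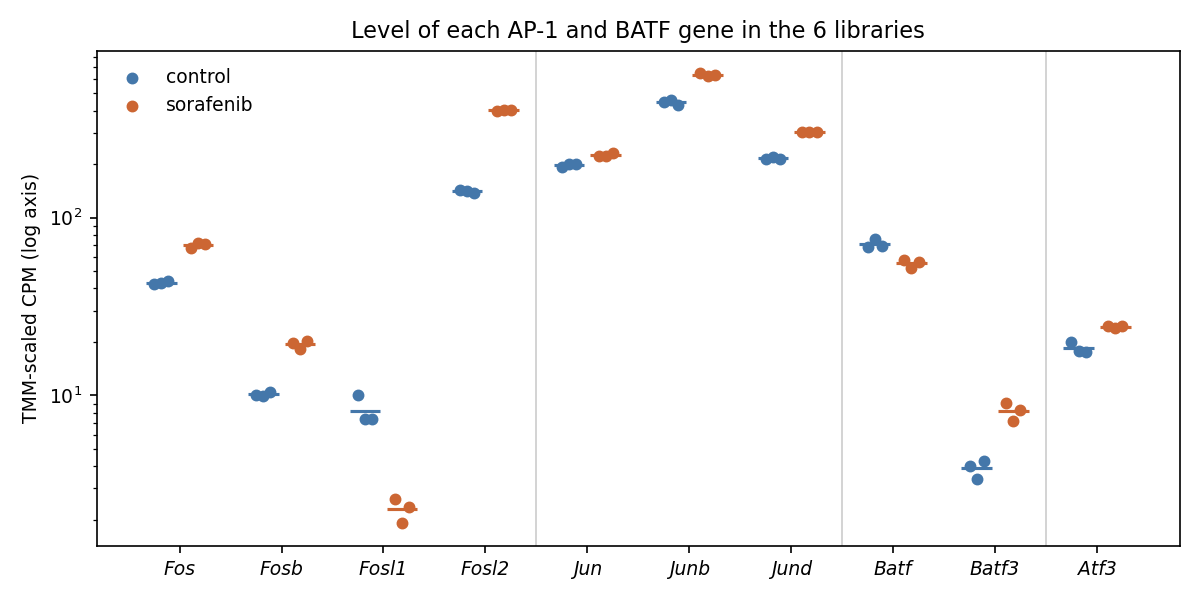
TMM-scaled CPM (log axis) of the 10 genes in 3 control (blue) and 3 sorafenib (orange) libraries; points are single libraries and short lines are group means, with grey lines between the FOS, JUN, BATF and ATF3 families. The groups do not overlap for any gene, Fosl2 has the widest gap upward and Fosl1 and Batf lie lower with Sora.

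Fosl2 encodes FRA-2, a FOS protein without a strong activation domain of the kind c-FOS carries, and it rose most of the 10. Its levels were 143, 141 and 138 CPM in ctrl-Treg and 397, 403 and 404 CPM in Sora-Treg libraries. The 3 values within each group lay close together, and every Sora-Treg library was more than 254 CPM above the highest control. The mean went from 141 ± 2.50 to 401 ± 3.91 CPM (SD, n = 3), 2.85-fold, or on the log2 scale by 1.51 ± 0.03 (SE, adjusted p = 1.48e-21 by edgeR). A larger rise was found in 3.41% of all genes tested.

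Fosl1 encodes FRA-1, the closest relative of FRA-2, and it moved the other way. It had 10.01, 7.36 and 7.33 CPM in ctrl-Treg libraries and 2.60, 1.91 and 2.36 CPM in Sora-Treg libraries. Control replicate 1 stood above the other controls, and even the lowest control was above all Sora-Treg libraries. The mean fell from 8.23 ± 1.54 to 2.29 ± 0.350 CPM (n = 3, SD), a difference on the log2 scale of -1.85 ± 0.16 (SE, adjusted p = 1.24e-09 by edgeR), and without control replicate 1 it was -1.68. Only 1.65% of all genes tested had a lower log2 fold change. These levels rest on 234 to 394 counts in the controls and 61 to 84 with Sora. Fosl1 overlaps Ccdc85b, which rose from 16.5 ± 1.002 to 21.8 ± 0.587 CPM (SD, n = 3, log2 fold change 0.40 ± 0.07 SE, edgeR adjusted p = 5.78e-05). Whether reads of the overlap were counted for either gene was not tested, as the strand setting of the counting is not stated.

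Fos encodes c-FOS, the prototype immediate early AP-1 protein. It had 42.2, 43.1 and 44.2 CPM in ctrl-Treg and 67.3, 72.5 and 71.3 CPM in Sora-Treg libraries. All Sora-Treg libraries lay above all controls by at least 23.0 CPM. The log2 fold change was 0.71 ± 0.04 (SE, adjusted p = 4.42e-12 by edgeR). Fosb, whose product can replace c-FOS in the dimer, had 10.03, 9.97 and 10.5 CPM in ctrl-Treg and 19.7, 18.2 and 20.2 CPM in Sora-Treg libraries. Its rise, 0.93 ± 0.08 on the log2 scale (SE, adjusted p = 1.07e-09 by edgeR), was just under the DEG limit. Of the 4 FOS genes, 3 were thus higher with Sora and 1 was lower.

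All 3 JUN genes were higher with Sora, and none of them reached the DEG limit. Junb, whose product is a partner of BATF in T cells, had 448, 458 and 432 CPM in ctrl-Treg and 649, 629 and 633 CPM in Sora-Treg libraries. Its log2 fold change was 0.51 ± 0.03 (SE, adjusted p = 1.70e-13 by edgeR), with a gap of 171 CPM between the groups. Jund, the JUN gene that is usually transcribed without stimulation, had 215, 220 and 215 CPM in ctrl-Treg and 304, 303 and 304 CPM in Sora-Treg libraries. The Sora-Treg values of Jund differed by an SD of only 0.638 CPM, and the log2 fold change was 0.49 ± 0.03 (SE, adjusted p = 7.17e-13 by edgeR).

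Jun encodes c-JUN, the strongest activator of the family and the target of the JNK kinases. It had 192, 201 and 201 CPM in ctrl-Treg and 222, 222 and 231 CPM in Sora-Treg libraries, with a log2 fold change of 0.19 ± 0.03 (SE, adjusted p = 2.13e-05 by edgeR). The call held with the scalings RLE (0.19, adjusted p = 1.44e-05 by edgeR) and upper quartile (0.15, adjusted p = 0.000259). With library totals alone, which moves the median of all genes to -0.12, the log2 fold change of Jun was 0.07 (edgeR adjusted p = 0.0531), and on log2(FPKM + 1), where values are also scaled by library totals, it was 0.07 as well (limma adjusted p = 0.0604). The deposited FPKM values of Jun went from 64.7 ± 1.44 to 67.9 ± 1.502 (SD, n = 3), a ratio of 1.05. The other 9 genes kept their direction and passed under all 4.

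The BATF pair split. Batf, which is needed for effector Treg differentiation in tissues, had 68.8, 75.5 and 69.6 CPM in ctrl-Treg and 57.6, 51.9 and 56.4 CPM in Sora-Treg libraries. Every Sora-Treg library was below every control, the mean went from 71.3 ± 3.63 to 55.3 ± 2.98 CPM (SD, n = 3), and the log2 fold change was -0.37 ± 0.05 (SE, adjusted p = 7.19e-07 by edgeR). Batf3, best known as the factor required for cross-presenting dendritic cells and also induced in activated T cells, had 4.01, 3.41 and 4.29 CPM in ctrl-Treg and 9.13, 7.21 and 8.26 CPM in Sora-Treg libraries. Its mean rose from 3.90 ± 0.452 to 8.20 ± 0.958 CPM (n = 3, SD), a difference on the log2 scale of 1.07 ± 0.14 (SE, adjusted p = 4.04e-07 by edgeR). Batf3 lay so close to the DEG limit that it dropped below it with library totals alone (0.96), on log2(FPKM + 1) (0.85), without control replicate 2 (0.99) and without sorafenib replicate 1 (0.99), while its adjusted p stayed under 0.05 in each. Of 5 dendritic cell markers in the table, Zbtb46 and Flt3 were tested and lower with Sora, and Xcr1, Cd207 and Itgax, at 0 to 8 counts, were not tested. The part of such cells in the Batf3 level was not tested.

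Atf3, a stress-induced bZIP factor that binds the same elements and pairs with JUN proteins, had 20.1, 17.7 and 17.6 CPM in ctrl-Treg and 24.5, 24.1 and 24.7 CPM in Sora-Treg libraries. The groups were 4.03 CPM apart, and the log2 fold change was 0.40 ± 0.07 (SE, adjusted p = 4.22e-05 by edgeR).

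Myeloid markers were highest in control replicates 1 and 2, and the comparison was repeated without these 2 libraries, a choice made after seeing the data. The remaining control is then a single library that is assumed to vary like the Sora-Treg libraries. All 10 factors passed in the same direction as before, 8 higher and 2 lower. The log2 fold change was 1.54 for Fosl2, 0.56 for Junb, 0.47 for Atf3, -0.33 for Batf and -1.68 for Fosl1, and 0.93 for Batf3, which was then below the DEG limit.

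**Figure D2:**
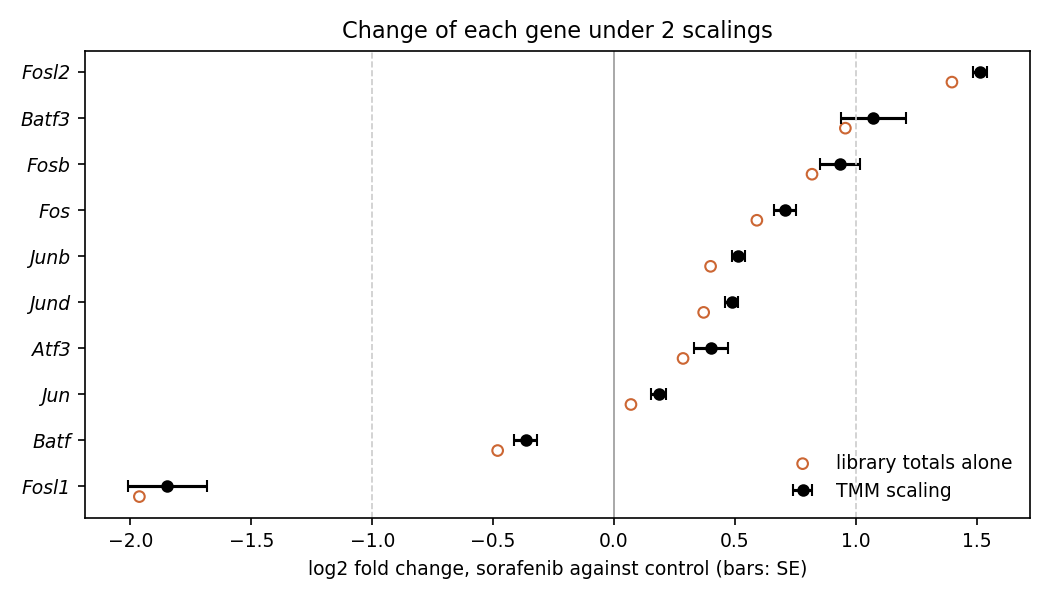
Log2 fold change of the 10 genes, sorafenib against control, ordered by size; filled points with SE bars use TMM scaling, open circles use library totals alone, and dashed lines mark the DEG limit. Library totals shift every gene down by about the same amount, which brings Jun from 0.19 to 0.07 and Batf3 from 1.07 to 0.96.

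Levels of different genes were compared on the FPKM scale, which divides by gene length (from 712 bases for Batf3 to 7081 for Fosl2). In ctrl-Treg cells Junb was highest with 252 ± 7.47 FPKM, followed by Batf with 82.0 ± 3.97, Jund with 78.4 ± 1.03 and Jun with 64.7 ± 1.44 FPKM (SD, n = 3). Fos (21.3 ± 0.465) and Fosl2 (20.7 ± 0.404) came next, then Atf3 (9.73 ± 0.753), Batf3 (5.70 ± 0.667), Fosl1 (5.02 ± 0.955) and Fosb (2.80 ± 0.0722). The ranges of Batf and Jund overlapped, as did those of Fos and Fosl2 and those of Batf3 and Fosl1, so the order within these pairs is not resolved. In Sora-Treg cells the order was Junb (332 ± 6.26), Jund (101 ± 0.365), Jun (67.9 ± 1.502), Batf (58.8 ± 3.25), Fosl2 (54.4 ± 0.447), Fos (32.0 ± 1.19), Atf3 (11.9 ± 0.161), Batf3 (11.1 ± 1.31), Fosb (4.93 ± 0.274) and Fosl1 (1.29 ± 0.199). Only Atf3 and Batf3 overlapped as neighbours there. Among all 22939 rows, Junb moved from rank 185 to 164 by mean FPKM, Fosl2 from 3065 to 1042, Batf from 630 to 937 and Fosl1 from 7356 to 9919.

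The summed level of the 10 genes was 542 ± 10.8 FPKM in ctrl-Treg and 676 ± 9.92 FPKM in Sora-Treg libraries (SD, n = 3). This sum depends on the scaling between libraries, whereas the shares of it within a library do not. The FOS share was 9.38%, 8.88% and 9.28% of this sum in ctrl-Treg and 13.3%, 14.0% and 13.8% in Sora-Treg libraries. The BATF share was 15.8%, 16.5% and 16.2% in ctrl-Treg and 10.8%, 9.74% and 10.5% in Sora-Treg libraries. FOS genes were thus a larger and BATF genes a smaller part of the pool in every Sora-Treg library than in any control. The JUN share, 72.9% ± 0.0862 and 74.2% ± 0.290, moved little, although its ranges did not overlap either, and the Atf3 share (1.79% ± 0.143 and 1.76% ± 0.0135) overlapped.

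Within the FOS family, Fosl2 held 41.4%, 42.1% and 41.0% of the FPKM in ctrl-Treg and 59.2%, 58.5% and 58.5% in Sora-Treg libraries. Fosl1 held 10.1% ± 1.72 and 1.39% ± 0.230, and Fos 42.8% ± 1.56 and 34.6% ± 0.844 (SD, n = 3). Fosl2 was about level with Fos in the controls (ratio 0.971 ± 0.0400) and above it with Sora (1.70 ± 0.0522). Within the BATF pair, Batf3 went from 6.52% ± 0.972 to 15.8% ± 0.887. Within the JUN family, Jun held 16.4% ± 0.512 in ctrl-Treg and 13.5% ± 0.350 in Sora-Treg libraries, and Junb 63.8% ± 0.680 and 66.3% ± 0.483. The FPKM ratio of Junb to its partner Batf was 3.195, 2.98 and 3.05 in ctrl-Treg and 5.54, 5.95 and 5.51 in Sora-Treg libraries. No test was made of these sums and shares, since the genes were chosen with results known.

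**Figure D3:**
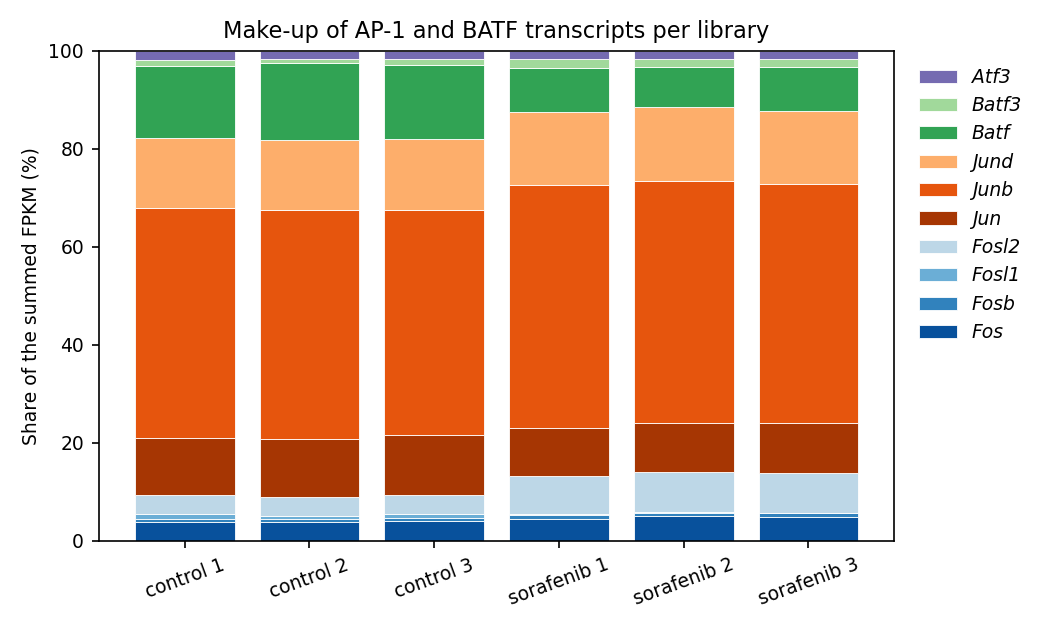
Share of each gene in the summed FPKM of the 10 genes, in percent, stacked per library (blues FOS, oranges JUN, greens BATF, purple Atf3). Junb is near 46% to 50% in all 6 libraries, Fosl2 goes from about 4% to about 8%, and Batf from about 15% to about 9%.

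Fos and Batf lie on chromosome 12 with Jdp2, a further bZIP gene that represses AP-1 sites, as the only gene of the deposited table between them. Fos rose, Batf fell, and Jdp2 went from 11.0 to 13.1 CPM (log2 fold change 0.26 ± 0.10 SE, edgeR adjusted p = 0.0249), a call that was lost with library totals alone (adjusted p = 0.205) and with DESeq2 (0.0563). It was also lost without control replicate 1 (adjusted p = 0.0563 by edgeR), control replicate 3 (0.138) or sorafenib replicate 3 (0.13). Batf3 and Atf3 are neighbours on chromosome 1, with 2 genes of the table between them, neither of them tested. Fam71a averaged 0.162 CPM in ctrl-Treg and 0.0841 CPM in Sora-Treg cells, and Gm46178 0.0183 and 0.0214 CPM. Batf3 and Atf3 both rose.

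By the root mean square difference of log2 CPM over the 6 libraries, relative to the control mean, the genes most like Fosl2 were Fam102a (0.0165), Adarb1 (0.0322) and Padi2 (0.0360). Fam102a went from 226 to 645 CPM. The genes most like Fosl1 were Nfkbid (0.146), an inhibitor-like NF-kB regulator, Ttc28 (0.178) and Zfp385a (0.184). In all, 101 genes lay within 0.2 of Fosl2 and 6 within 0.2 of Fosl1, out of 9105 compared. Those compared had a mean log2 CPM of at least 3. Fosl1 has few counts and varied among its controls (10.01, 7.36 and 7.33 CPM), which limits how near another gene can lie. These counts therefore do not say which pattern is rarer.

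**Figure D4:**
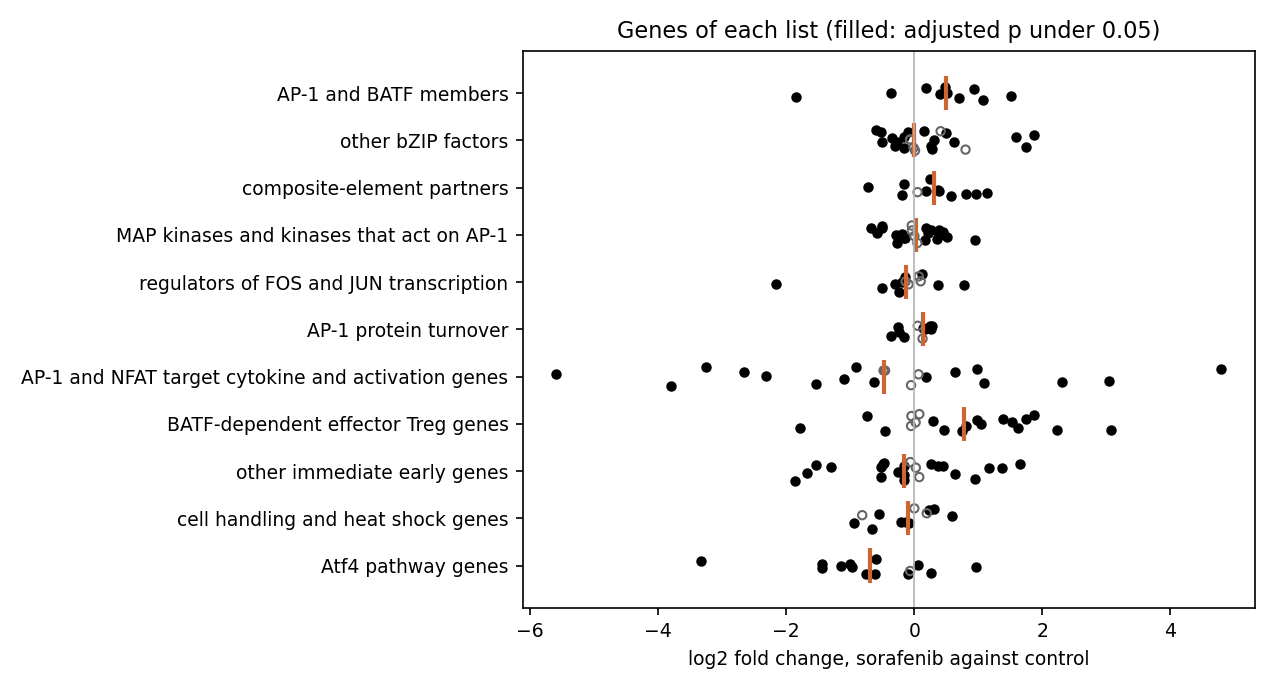
Log2 fold change, sorafenib against control, of every tested gene in 11 groups, the 10 AP-1 and BATF genes and 10 lists of related genes; filled points passed at an adjusted p under 0.05, open points did not, vertical bars are medians. The genes listed as BATF-dependent in effector Treg cells lie mostly to the right and the Atf4 pathway genes mostly to the left. The other immediate early genes spread to both sides.

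The counts for the lists below stand beside a general share of 59.6% of all genes tested that passed. That share was 67.5% among genes at least as abundant as the least abundant factor. Other bZIP factors went both ways. Of 24 tested, 9 rose, 9 fell and 6 did not pass, with a median log2 fold change of -0.0004, against -0.0035 over all genes. Maf (c-MAF, an activator of Il10) and Nfil3 rose by 1.87 ± 0.06 and 1.74 ± 0.04 (log2 scale, SE, adjusted p = 2.21e-17 and 1.03e-20 by edgeR), and Atf5 and Cebpb fell by 0.61 and 0.52. With library totals alone, 7 were higher and 13 lower. Of the 12 factors that share composite elements with AP-1, 8 rose and 3 fell, with a median of 0.31 (0.19 with library totals alone). Runx3 and Irf8, the latter a direct partner of BATF and JUN, rose by 1.14 ± 0.03 and 0.97 ± 0.03 (log2 scale, SE). Nfatc1, an NFAT factor, fell by 0.72 and Smad2 by 0.19.

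Among 24 MAP kinases and kinases that act on AP-1, 11 rose and 9 fell, with a median of 0.02. With library totals alone 8 were higher and 12 lower, and the median turned to -0.09, as it did to -0.01 with upper quartile scaling and to -0.02 without sorafenib replicate 2, while it was 0.06 without sorafenib replicate 1. Map3k1, a kinase upstream of JNK, rose by 0.94 ± 0.03 (log2 scale, SE), and Prkcq, the protein kinase C of the T cell receptor pathway, by 0.51 ± 0.03, while the p38 activator Map2k6 fell by 0.67 and Rps6ka2 by 0.58. The call of Rps6ka2 was lost without control replicate 1 (-0.54), control replicate 2 (-0.54) or sorafenib replicate 2 (-0.42). Of 13 regulators of FOS and JUN transcription, 3 rose and 6 fell, with a median of -0.14. It was -0.08 without control replicate 3 and -0.25 with library totals alone, where 2 were higher and 8 lower. Stat3 and Mef2d rose by 0.78 ± 0.02 and 0.37 ± 0.03 (log2 scale, SE), and Creb1 and the serum response factor partner Elk4 fell by 0.51 and 0.30. Of 11 genes of AP-1 protein turnover, 5 rose and 4 fell, with a median of 0.13 (0.01 with library totals alone). The ubiquitin ligase Itch, which marks JUN proteins for destruction, rose by 0.27 ± 0.04 (log2 scale, SE), and Usp28 by 0.27 ± 0.07, while Uchl3 and Det1 fell by 0.36 and 0.25. The call of Usp28 was lost with library totals alone and on FPKM, and that of Det1 without both control replicates 1 and 2. With library totals alone 2 of these 11 were higher and 5 lower.

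Of 20 cytokine and activation genes that AP-1 and NFAT are known to act on, 7 rose and 9 fell, with a median of -0.47. It was -0.25 over the 18 of them that had at least 1 CPM in 3 libraries and -0.31 on log2(FPKM + 1). Il2, the textbook target, had 72.2, 71.7 and 78.7 CPM in ctrl-Treg and 1.55, 1.38 and 1.66 CPM in Sora-Treg libraries, and Il5 also fell, from 3.501 to 0.252 CPM. Fasl, which encodes the death ligand FASL, rose from 1.47 to 12.2 CPM, and Il22 was at 4, 4 and 0 counts in ctrl-Treg and 71, 68 and 71 counts in Sora-Treg libraries. Of 20 genes listed from general knowledge as dependent on BATF in effector Treg cells, 13 rose and 3 fell. Their median was 0.78 (0.49 on log2(FPKM + 1) with no filter). Batf itself had a log2 fold change of -0.37, and dependence of these genes on it was not tested. Maf and Nfil3, given above, are on this list too. Il10 and Tnfrsf9 (4-1BB) rose by 3.07 ± 0.10 and 2.24 ± 0.02 (log2 scale, SE), and Pdcd1 (PD-1) and Ccr8 fell by 0.75 and 0.46. The study picked Il10 from these libraries, and the whole list was written with earlier results of these data known. None of its members is therefore independent evidence.

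Of 23 other immediate early genes, 8 rose and 12 fell, with a median of -0.15 (-0.27 with library totals alone). Egr3 and Nr4a3, transcription factors induced by the T cell receptor, fell by 1.87 and 1.68, and Klf4 and Klf6 rose by 1.65 ± 0.09 and 1.38 ± 0.04 (log2 scale, SE). Of 12 heat shock genes, 3 rose and 6 fell, with a median of -0.10 (-0.22 with library totals alone). The list was drawn up with cell handling in mind. Its members went both ways, so its counts and median are no measure of handling, which was not tested. Hspd1 and Hsph1 fell by 0.94 and 0.67, and Dnajb4 and Hspa1b rose by 0.58 ± 0.09 and 0.30 ± 0.10 (log2 scale, SE). The call of Hspa1b was lost with library totals alone (0.19). Of 14 genes of the Atf4 pathway, of which Atf3 is a known target, 3 rose and 10 fell, with a median of -0.69. Slc7a11, which encodes a cystine transporter, fell by 3.33, from 3.201 to 0.313 CPM, and Phgdh, an enzyme of serine synthesis, fell by 1.44. Vldlr and Ppp1r15a rose by 0.97 ± 0.03 and 0.25 ± 0.04 (log2 scale, SE). The part of any of these lists in the change of the AP-1 genes was not tested.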

How the data were processed

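Total RNA was extracted with TRIzol and libraries were made with a VAHTS Universal V5 kit. For each gene symbol the authors deposited counts and FPKM values, for 22939 genes in 6 libraries. The sources on their processing differ: the study's methods name Bowtie2, the build GRCm38 and an expectation maximization step, whereas the submitters' processing notes name fastp, HISAT2, HTSeq, R 3.2.0, DESeq2 and GRCm39. The strand setting and annotation release are not given in the sources used here. The deposited FPKM equal count over gene length and library total (largest relative spread of the implied length 1.64e-06), so they are no separate measurement.

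Titles gave the groups and replicate numbers. The counts were tested with edgeR 4.0.16 (quasi-likelihood, TMM, filterByExpr, 13463 genes, no covariate) in R 4.3.3, and SE is the size of the log2 fold change over the root of its F statistic. The members and lists were chosen with earlier results of these data known, and lists are general knowledge. The letters TGACGT and TATAAA were chosen after the promoters were seen. Named from each list were at most 2 passing genes a direction, by size of change, with a mean of at least 1 CPM. Alternatives were other scalings and filters, DESeq2 1.42.0, a 2-fold null, limma 3.58.1 on log2(FPKM + 1) or log2(FPKM + 0.1) with an FPKM minimum of 0.5 in 3 libraries or none, the replicate block, and each library left out. The fit without both control replicates 1 and 2 was chosen after seeing the data. Scripts were tested on simulated data. Replicates differed beyond sampling noise (chi-square per degree of freedom 3.36 to 5.91).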

Additional observations from a re-analysis of the deposited data

How the results depend on the processing

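Apart from the 2-fold null, 17 alternatives gave 170 values for the 10 genes, of which 166 kept direction and side of the adjusted p threshold. The other 4 were Jun, with library totals alone (0.07) and on the 3 FPKM settings (0.07 each). The DEG limit is not part of this count, and Batf3 fell below it in several alternatives, as given above. The median of all genes was -0.12 with library totals alone, and the cause was not tested. Under the 2-fold null 1 factor was higher (Fosl2) and 1 lower (Fosl1), among 490 higher and 288 lower genes overall. Among all genes, log2(FPKM + 1) gave 2502 higher and 5092 lower genes and 275 higher and 189 lower DEGs, log2(FPKM + 0.1) 2494 and 5076 genes and 454 higher DEGs, and no FPKM filter 2577 and 4973 genes and 274 and 185 DEGs. The summed level of the 10 was 521 and 704 with FPKM rescaled by TMM factors and 1179 and 1490 as TPM, in ctrl-Treg and Sora-Treg libraries. With a library left out, Fosl1 ranged from -1.94 to -1.68, Fosl2 from 1.497 to 1.53 and Batf3 from 0.99 to 1.16. Same-numbered libraries did not deviate together (correlations -0.0438, 0.0591 and 0.0299), and adding the replicate block gave 850 higher DEGs and 673 lower ones, with no change of call for the 10. Of 48 other named genes 43 kept direction and call in all 17. The exceptions were Jdp2, Usp28, Hspa1b, Rps6ka2 and Det1, and the cause was not tested. For 1 gene alone, exactly permuting 3 against 3 libraries gives no p under 0.1.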
